A study of Mus musculus with 7 samples.

Results

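Genes encoding potassium channel subunits were followed in RNA-seq libraries of sorted mouse pancreatic β-cells, the insulin-secreting cells of the islet. The genes are those rows of the count table whose symbol starts with Kcn followed by a family letter and a number, without Kcnj11 and without pseudogene, Rik and opposite-strand symbols, that reached a mean of at least 1 CPM (read counts scaled to a common library size) over the 7 libraries. Of 92 matching symbols among the 35013 in the table, 40 reached that level and 52 did not, 12 of the latter having 0 counts in every library. Over the whole table, 11897 symbols had a mean of at least 1 CPM.

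The study asked how loss of the aldehyde dehydrogenase gene Aldh1a3 from β-cells affects them in diabetic mice. The 3 genotypes below were compared, with 1 library per mouse: Aldh1a3 KO_db/db (n = 2, homozygous for a floxed Aldh1a3 allele and for the db mutation of the leptin receptor gene Lepr), db/db controls (n = 2, heterozygous for the floxed allele and homozygous for db) and lean db/+ controls (n = 3, heterozygous for both). All 3 groups carried the RIP-Cre Herr transgene, in which the rat insulin promoter drives Cre recombinase, and a Cre-dependent tdTomato reporter, so the control mice also had 1 floxed Aldh1a3 allele. The study used male and female mice 16 to 20 weeks old unless it stated otherwise, and fasted them for 16 h before islet isolation. Aldh1a3, the targeted gene, was at 4.97 and 7.89 CPM in the KO_db/db libraries, at 98.5 and 194 CPM in db/db and at 0.073 to 0.589 CPM in db/+.

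Potassium channels let potassium leave the β-cell and so hold its membrane potential negative. Closure of ATP-sensitive channels by glucose metabolism depolarises the cell, calcium channels open, and insulin granules are released. Voltage-gated (Kv) and calcium-activated channels then repolarise the membrane and end each action potential, while 2-pore-domain channels carry a background leak current, and auxiliary subunits set how many pore subunits reach the surface and how they gate.

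A promoter sequence is printed for each of 4 genes, 3 of them (Kcnip3, Kcns3 and Kcnj12) with the widest differences in level between groups. The other, Kcnh6, was the only gene of the 27 searched with letters of a part of a repressor element near its start. RefSeq (GRCm38.p6) gave 40 promoters for 27 of the 40 genes, each reaching from 250 bases before a transcription start to 50 after it, and only bases before the start and outside exons of the GENCODE annotation are shown, 5′ to 3′ on the gene's strand. Capitals mark letters matched by a search of both strands for the GC box, spelled GGGCGG, and for the CCAAT box. They also mark the core of the element bound by MAF factors, searched as TGCTGAC, and a part of the RE1 repressor element, searched as TTCAGCACC. The 4 sequences are Kcnip3 at chr2:127482500-127482749 (minus strand, 1 of 3 listed promoters, in an intron of the annotated gene), Kcns3 at chr12:11150374-11150623 (minus strand, 1 of 2, also intronic), Kcnj12 at chr11:61065554-61065803 (plus strand, intronic) and Kcnh6 at chr11:106007898-106008123 (plus strand, just before the annotated gene, with 24 exonic bases cut).
Kcnip3: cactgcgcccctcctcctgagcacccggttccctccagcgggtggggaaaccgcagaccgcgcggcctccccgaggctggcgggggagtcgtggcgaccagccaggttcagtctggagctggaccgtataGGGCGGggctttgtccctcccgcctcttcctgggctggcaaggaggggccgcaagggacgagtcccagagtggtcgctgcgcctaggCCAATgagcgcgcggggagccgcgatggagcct
Kcns3: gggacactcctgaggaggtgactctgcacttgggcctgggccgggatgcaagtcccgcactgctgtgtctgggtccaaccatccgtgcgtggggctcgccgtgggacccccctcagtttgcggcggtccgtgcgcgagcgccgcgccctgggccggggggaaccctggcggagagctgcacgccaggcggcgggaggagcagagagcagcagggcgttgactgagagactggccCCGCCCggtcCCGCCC
Kcnj12: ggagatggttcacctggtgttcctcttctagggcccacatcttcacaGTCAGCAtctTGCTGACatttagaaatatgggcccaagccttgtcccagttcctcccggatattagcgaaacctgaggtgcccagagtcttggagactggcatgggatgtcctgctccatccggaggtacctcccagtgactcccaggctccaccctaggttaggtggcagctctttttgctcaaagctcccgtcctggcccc
Kcnh6: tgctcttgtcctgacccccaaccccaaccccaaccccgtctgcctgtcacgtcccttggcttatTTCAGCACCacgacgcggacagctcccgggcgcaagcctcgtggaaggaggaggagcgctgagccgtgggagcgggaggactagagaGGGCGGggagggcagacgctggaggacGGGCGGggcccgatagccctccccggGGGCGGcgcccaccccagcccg

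Within the full 300 bases, the GC box was in 21 of the 40 promoters (52.5%), against 35.7% of all 32851 RefSeq promoters. Kcnj12 held TGCTGAC or its reverse complement at 2 adjacent places, an element present in 4.67% of all promoters and in 1 of the 3 Kcnip1 promoters. The TTCAGCACC letters of Kcnh6 occurred in 0.371% of all promoters. CCAAT was in 13 of the 40 (37.4% of all promoters) and the E-box CACGTG in 1, that of Kcnn4 (7.15% of all). No match was found among the 40 for the cyclic-AMP response element TGACGTCA, for a TATA box spelled TATAAA, for the forkhead letters TGTTTAC or for a DR5 retinoic acid response element. The unmatched letters were in 1.79%, 13.6%, 3.65% and 0.00913% of all promoters, in the order named. The DR5 spelling searched was in only 3 of the 32851, too rare for its absence from 40 promoters to be informative. Whether these genes respond to retinoic acid was not tested. All matches given here are letters in a window and were not tested as binding sites.

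Total counts were 27496645 to 35852785 per library, so that 3 counts, taken as the detection floor, corresponded to 0.0717 to 0.123 CPM. Libraries were not equal in other cell types. Summed over 23 acinar markers, the 2 KO_db/db mice had 139945 and 11620 CPM (12.4% and 1.33% of their counts), 230 to 404 CPM in db/db and 80.7 to 249 CPM in db/+. The 10 β-cell markers summed to 225660 to 297961, 201713 to 225139 and 395255 to 442887 CPM in KO_db/db, db/db and db/+. The alpha-cell list ran from 1187 to 1664, from 2106 to 2557 and from 1069 to 1701 CPM in that order, and the delta-cell list from 519 to 653, from 87.4 to 169 and from 381 to 2332 CPM. The PP-cell list was at 677 to 910, 347 to 609 and 151 to 560 CPM, and the ductal list at 307 to 348, 290 to 432 and 186 to 202 CPM. Endothelial, stellate, macrophage and Schwann or neuronal lists each stayed under 100 CPM, with the glial marker Sox10 at 0 in all libraries. Summed counts of 4 Y-linked genes were 2911 in db/+ mouse 3 and 20 to 79 in each other library. The labels give no sex for any mouse, and the high Y-linked level was found only in the lean group. The part of these differences in the results below was not tested. In bulk samples, fewer cells of a type and less RNA per cell cannot be told apart, and p-values measure the spread between these mice.

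Per kb of exonic length, the scale on which genes can be ranked, 1 gene stood far above the rest (the plot of level per length). Kcnk16 (chr14:20261376-20269199, minus strand), the islet 2-pore-domain leak channel, averaged 203 CPM per kb over the 7 libraries. Kcnmb2, an auxiliary subunit of the large-conductance calcium-activated channel, followed at 42.4 CPM per kb. Kcnh2, a pore subunit of the ERG Kv family, reached 17.1, the leak channel subunit Kcnk1 14.7, the Kv-channel-interacting protein Kcnip1 12.1, and Kcnh6 of the ERG family 9.61 CPM per kb. The Kv β-subunit Kcnab3 (7.59), the small-conductance calcium-activated channel Kcnn3 (4.84) and the 2-pore-domain subunit Kcnk12 (4.65) were also among the highest 10. By contrast, 12 of the 40 genes had a group mean under 1 CPM in at least 1 genotype and entered the set through the group in which they were high.

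**Figure D1:**
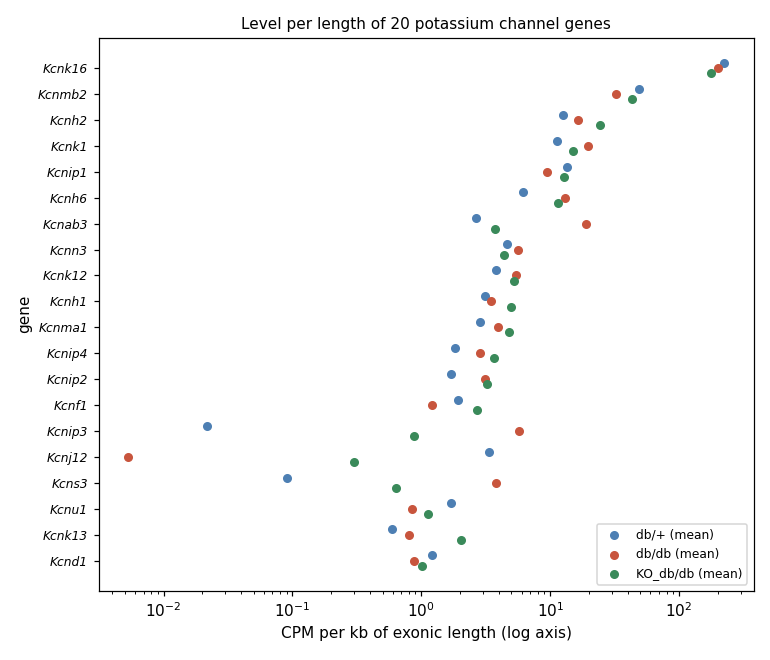
Level per kb of exonic length (CPM per kb, log axis) of 20 genes, ordered by their mean over the libraries, with 1 point for each genotype's mean (n = 2 for KO_db/db and db/db, n = 3 for db/+). Kcnk16 lies at the top in each genotype, and Kcnip3, Kcnj12 and Kcns3 have the widest gaps between genotypes.

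The composition of the set shifted between lean mice and mice of db/db background. Kcnk16 was at 491, 512 and 580 CPM in db/+, 537 and 420 CPM in db/db and 466 and 371 CPM in KO_db/db. The db/+ and db/db libraries overlapped, and both KO_db/db libraries lay below the 3 db/+ libraries. Its log2 fold change relative to db/+ was -0.15 ± 0.15 (SE) for db/db and -0.33 ± 0.16 for KO_db/db, neither passing edgeR's quasi-likelihood test (Benjamini-Hochberg adjusted p = 0.46 and 0.148). The other 39 genes together summed to 587, 612 and 644 CPM in db/+, 935 and 790 CPM in db/db and 899 and 789 CPM in KO_db/db. Kcnk16 thus made up 45.6% to 47.4% of the set's summed CPM in db/+ and 32% to 36.5% in the 4 libraries of db/db background, and these ranges do not overlap.

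**Figure D2:**
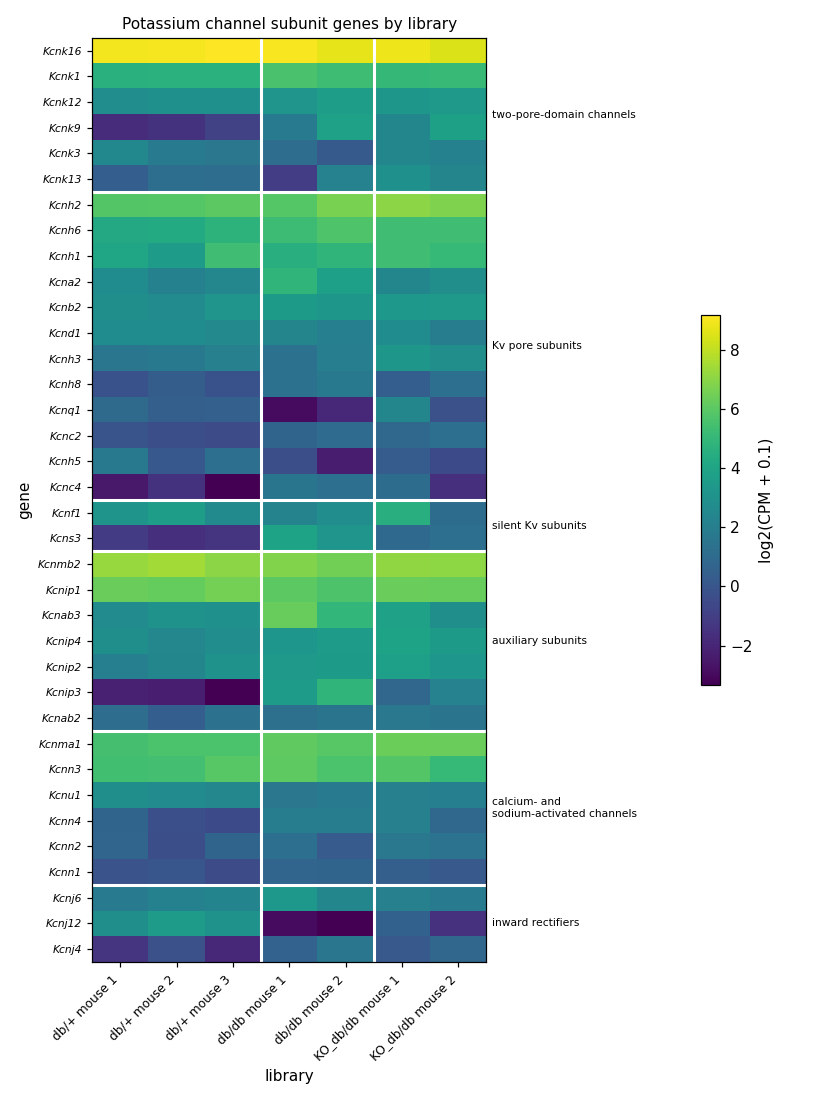
Level of 36 of the 40 genes (rows, grouped by channel class and ordered by mean level) in each of the 7 libraries (columns), as log2(CPM + 0.1). Kcnk16 is the brightest row throughout, while Kcnip3, Kcns3, Kcnk9 and Kcnc4 are dark in the 3 db/+ libraries and Kcnj12 and Kcnq1 are dark in the 2 db/db libraries.

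Between diabetic db/db and lean db/+ β-cells, potassium channel genes were called in both directions. Of the 40, 16 rose and 5 fell (21 called, or 52.5%), where 37.8% of all 13406 genes tested were called, 19.9% higher and 18.0% lower. The median log2 fold change of the 40 was 0.47 and that of all genes tested 0.01, and 28 of the 40 fold changes were above 0. Those counts include the 12 genes under 1 CPM in a genotype, which hold 7 of the 16 rises and 2 of the 5 falls and entered the set through the group in which they were high. Among the other 28, 9 rose and 3 fell (42.9%), against 39.4% of the 11149 genes with at least 1 CPM in each genotype (19.4% higher, with 2227 genes lower), a share close to that of all genes. Their median log2 fold change was 0.41, and that of the 11149 genes was -0.02. Libraries of db/db and db/+ did not overlap for 30 of the 40 genes (22 higher, 8 lower), against 63.3% of all genes (32.6% higher, 30.7% lower). Leaving out any 1 library gave 14 (without db/+ mouse 1) to 22 (without db/db mouse 1) calls, and 20 without db/+ mouse 3.

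KO_db/db β-cells, compared with the same db/+ libraries, had 15 genes that rose and 1 that fell among 39 tested (41.0%), with 38.4% of all 13228 genes called, 20.5% higher and 17.9% lower. The median log2 fold change was 0.68, against -0.00 for all genes tested, and 30 of the 39 were above 0. Of the 28 genes with at least 1 CPM in each genotype, 11 rose and none fell (39.3%), with 41.3% of such genes called over the whole table (21.3% higher, with 2227 genes lower). Libraries did not overlap for 26 of the 39 (23 higher, 3 lower), against 64.1% of all genes (31.7% higher, 32.5% lower). Without KO_db/db mouse 1, the library with the most acinar RNA, 12 genes were called, 10 higher and 2 lower, and without db/+ mouse 3 there were 18. Both comparisons use the db/+ libraries, so their results are given side by side. There were 10 genes called higher in both, Kcnj12 was called lower in both, 5 were called higher in db/db and not called in KO_db/db, 4 were called lower in db/db and not called in KO_db/db, and 5 were called higher in KO_db/db and not called in db/db. Kcnc4 was called higher in db/db and not tested in KO_db/db, and 14 were called in neither.

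**Figure D3:**
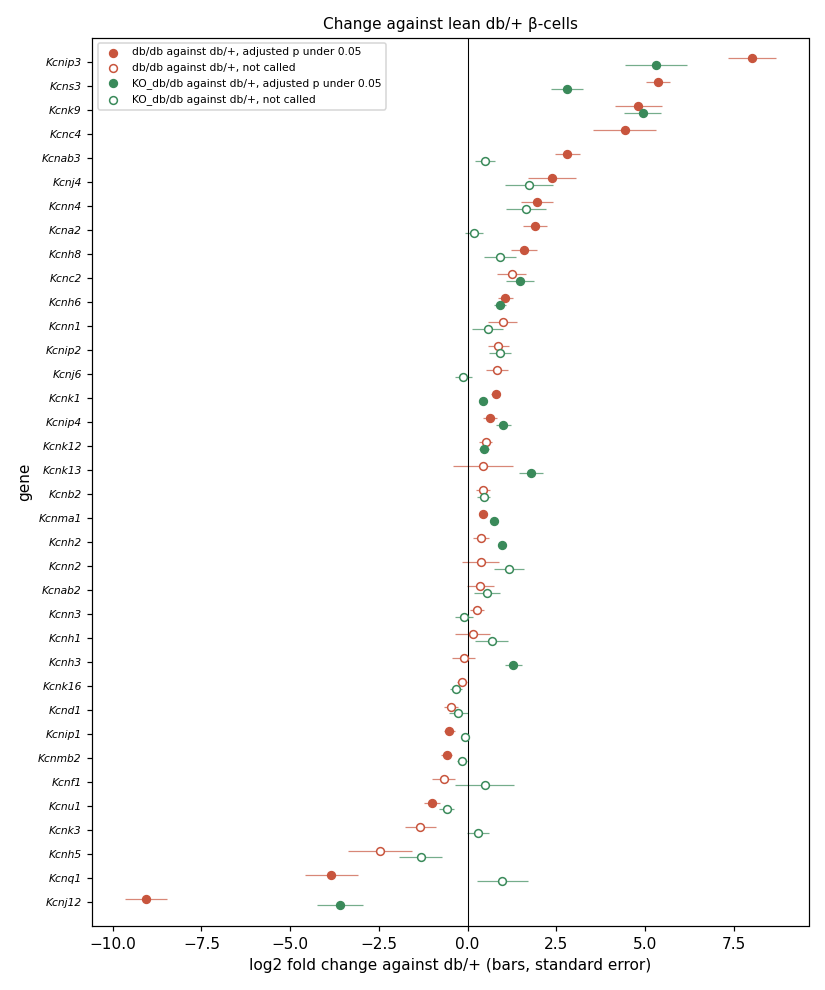
Fitted log2 fold change against db/+ (horizontal axis, bars give the standard error) of 36 of the 40 genes in db/db (red) and KO_db/db (green), filled where the adjusted p was under 0.05. Most points lie to the right of 0, and the fitted values of Kcnip3 and of Kcnj12 rest on a group with at most 3 counts per library and are not sizes to quote.

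The direct comparison of KO_db/db with db/db called none of the 39 genes tested by edgeR's quasi-likelihood test, where 0.319% of all 13486 genes were called (43 genes, 0.126% higher and 0.193% lower). At an unadjusted p under 0.05 there were 11 of 39 (6 higher and 5 lower), against 20.9% of all genes (11.0% higher, 9.85% lower). DESeq2 called 7, with 10.2% of all genes called (5.47% higher, 4.68% lower), and a single edgeR fit of all 7 libraries also called 7, with 5.93% of all genes called (3.66% higher, 2.28% lower). In both, Kcnab3, Kcna2, Kcnip3 and Kcns3 were lower and Kcnh3 and Kcnq1 higher in KO_db/db, and DESeq2 added Kcnk3 and the single fit Kcnj12, both higher. Of these, Kcnip3, Kcns3, Kcnq1 and Kcnj12 are among the 12 genes under 1 CPM in a genotype. Those 12 entered the set through the group in which they were high, so the counts of 7 are no measure of an excess over all genes. The median log2 fold change was 0.04, with 20 of 39 above 0, and the median of all genes tested was -0.02. Libraries did not overlap for 21 of 39 genes (11 higher, 10 lower), against 57.5% of all genes tested (28.4% higher, 29.1% lower). Among the 28 genes with at least 1 CPM in each genotype, edgeR called none, against 0.278% of the 11149 such genes. The median log2 fold change of those 28 was 0.18, and that of the 11149 genes was -0.02.

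**Figure D4:**
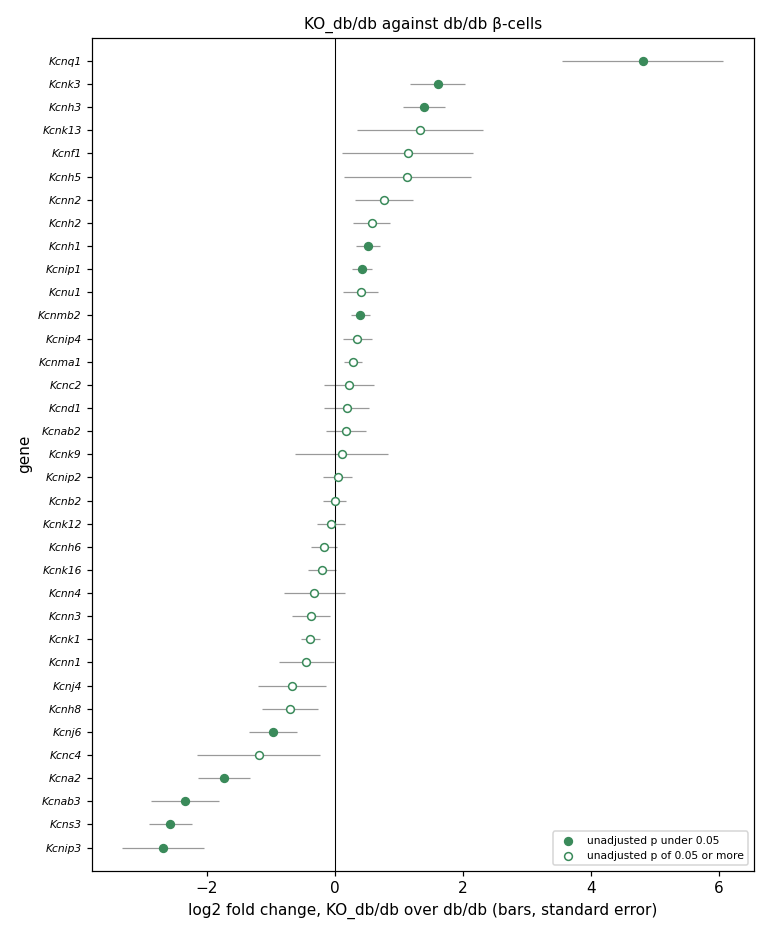
Fitted log2 fold change of KO_db/db over db/db (horizontal axis, bars give the standard error) for 35 of the 39 genes tested, filled where the unadjusted p was under 0.05. The 11 filled points lie on both sides of 0, from -2.69 for Kcnip3 to 4.81 for Kcnq1, and none passed the adjusted threshold.

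Among the 16 Kv pore subunits, which form the voltage-gated pores, 7 rose and 1 fell in db/db, and 7 of the 15 tested rose in KO_db/db. Over all genes tested, 19.9% rose and 18.0% fell in db/db and 20.5% and 17.9% in KO_db/db, the shares beside which the count of each channel class is to be read. Class counts also include genes under 1 CPM in a genotype, which entered the set through the group in which they were high. In db/db these called genes were Kcnh8, Kcnc4, Kcnq1, Kcns3, Kcnip3, Kcnn4, Kcnk9, Kcnj4 and Kcnj12. In KO_db/db they were Kcnc2, Kcns3, Kcnip3, Kcnk9 and Kcnj12. An excess of a class over all genes cannot be read from such counts. Among the ERG-family subunits, whose currents help to end bursts of action potentials, Kcnh6 rose in both genotypes of db/db background and Kcnh2 was called in KO_db/db. Kcnh6 was at 18.5, 20.1 and 26.8 CPM in db/+, 37.9 and 54 CPM in db/db and 40.7 and 40.8 CPM in KO_db/db. Its log2 fold change was 1.06 ± 0.21 in db/db and 0.91 ± 0.16 in KO_db/db (edgeR adjusted p = 0.0097 and 0.00702). Kcnh2 was at 57.5, 59.2 and 64.8 CPM in db/+, 58.1 and 101 CPM in db/db and 130 and 107 CPM in KO_db/db. One db/db library lay among the lean ones, and both KO_db/db libraries lay above all others. The rise of Kcnh2 in KO_db/db was 0.98 ± 0.11 (log2, adjusted p = 0.00161), while in db/db its value was 0.39 ± 0.22 (adjusted p = 0.216) and -0.076 without db/db mouse 2. Kcnh3, of the ELK family, was at 2.87 to 4.29 CPM in db/+, 2.47 and 3.94 CPM in db/db and 9.65 and 7.24 CPM in KO_db/db, a rise of 1.29 ± 0.25 against db/+ (adjusted p = 0.00846) that missed the threshold without KO_db/db mouse 1 (1.07). Against db/db its log2 fold change was 1.39 ± 0.33 (adjusted p = 0.129).

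Kcnb2, a delayed-rectifier pore subunit, was at 6.53 to 9.07 CPM in db/+ and 9.78 to 11.2 CPM in the other 4 libraries, and was called in no comparison.

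Kcna2, a Shaker-type subunit named here after its values were seen, was at 6.76, 4.41 and 5.47 CPM in db/+, 28.5 and 13.3 CPM in db/db and 5.3 and 7.26 CPM in KO_db/db. The KO_db/db libraries lay close to the lean ones and below both db/db libraries. It rose by 1.90 ± 0.34 in db/db (edgeR adjusted p = 0.00616), or 1.25 without db/db mouse 1, and was 0.19 ± 0.25 above db/+ in KO_db/db (adjusted p = 0.573). The KO_db/db to db/db value was -1.73 ± 0.41 (adjusted p = 0.127).

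A further 3 Kv subunits with low levels in lean cells were called in db/db or KO_db/db. Kcnc4 had 0.0819, 0.255 and 0 CPM in db/+, 2.79 and 2.25 CPM in db/db and 2.05 and 0.219 CPM in KO_db/db. Its log2 fold change in db/db was 4.43 ± 0.89 (edgeR adjusted p = 0.00955), ranging from 3.83 without db/+ mouse 3 to 5.89 without db/+ mouse 2. Kcnh8 was at 0.778 to 1.2 CPM in db/+, 2.44 and 3.23 CPM in db/db and 1.23 and 2.23 CPM in KO_db/db. It rose by 1.60 ± 0.37 in db/db (adjusted p = 0.0162), a call that was lost without db/db mouse 2 (1.38) or without db/+ mouse 1 (1.49). Kcnc2 was at 0.623 to 0.86 CPM in db/+, 1.53 and 1.94 CPM in db/db and 1.72 and 2.31 CPM in KO_db/db. It rose by 1.48 ± 0.40 in KO_db/db (adjusted p = 0.027), and this call was lost whichever single library was left out (1.24 to 1.67).

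Kcnq1 (chr7:143106362-143427042, plus strand), the pore subunit of the slow delayed rectifier and a type 2 diabetes susceptibility gene, moved the other way. It was at 1.92, 1.28 and 1.32 CPM in db/+, 0.0294 and 0.167 CPM in db/db and 5.26 and 0.753 CPM in KO_db/db. Both db/db libraries were near or under the floor, and the KO_db/db libraries lay on either side of the lean ones. Its log2 fold change in db/db against db/+ was -3.84 ± 0.76 (edgeR adjusted p = 0.00898), with a value of -3.15 without db/db mouse 1 and -5.50 without db/db mouse 2. The KO_db/db to db/db value was 4.81 ± 1.26 (adjusted p = 0.144). Against db/+ it was 0.98 ± 0.73 (adjusted p = 0.323), and -0.99 without KO_db/db mouse 1, the library in which acinar markers took 12.4% of counts.

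**Figure D5:**
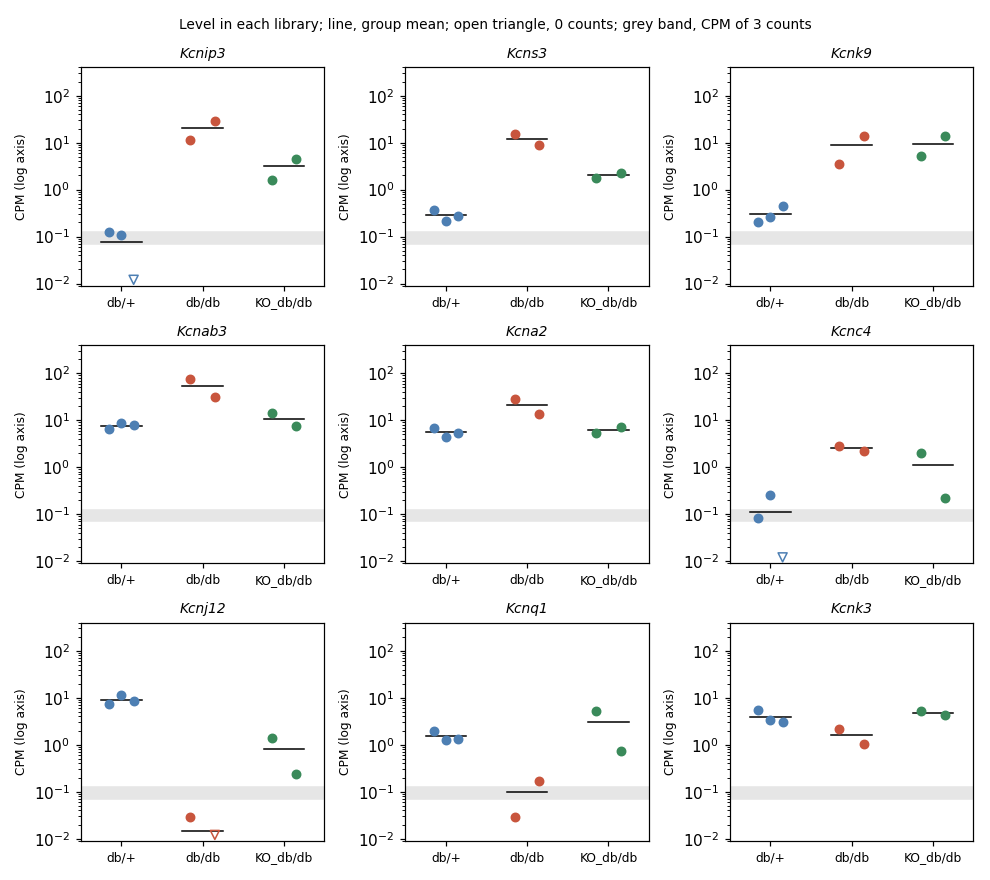
Level of 9 genes in each library (CPM, log axis), with 1 point per mouse, a line at the group mean, an open triangle for 0 counts and a grey band for the level of 3 counts. Kcnip3, Kcns3, Kcnab3, Kcna2 and Kcnc4 have their highest mean in db/db, Kcnk9 spans 3.58 to 14 CPM over db/db and KO_db/db, and Kcnj12, Kcnq1 and Kcnk3 have their lowest mean in db/db.

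The 2 silent Kv subunits, which form no channel alone and change the gating of Kv pore subunits when joined to them, behaved differently from each other. Kcns3 (chr12:11090202-11151056, minus strand) was at 0.368, 0.219 and 0.277 CPM in db/+, 15.2 and 9.03 CPM in db/db and 1.81 and 2.23 CPM in KO_db/db. The 3 groups did not overlap, and KO_db/db lay between the controls. Its log2 fold change was 5.37 ± 0.35 in db/db and 2.81 ± 0.46 in KO_db/db against db/+ (edgeR adjusted p = 0.000447 and 0.00508), calls that held when any 1 library was left out. From db/db to KO_db/db it was -2.57 ± 0.34 (adjusted p = 0.0737, the lowest of the set in this comparison), and adjusted p was 0.0393 without db/db mouse 2. Kcnf1, named here after its values were seen, was at 6.27 to 12.5 CPM in db/+, 4.67 and 6.91 CPM in db/db and 23.8 and 2.02 CPM in KO_db/db. The 2 KO_db/db libraries were its highest and its lowest, the high one being the acinar-rich library, and its value against db/+ of 0.48 ± 0.84 became -2.18 without that library.

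Of 7 auxiliary subunits, 3 rose and 2 fell in db/db, and 2 rose in KO_db/db. Kcnip3 (chr2:127456498-127522094, minus strand), a calcium-binding protein that modulates Kv currents and is also known as the transcriptional repressor DREAM, had 3, 3 and 0 counts in db/+, 397 and 1223 in db/db and 40 and 189 in KO_db/db. These are 0.123, 0.109 and 0 CPM, then 11.7 and 29.2 CPM, then 1.64 and 4.59 CPM, and again the 3 groups did not overlap. Pooled over libraries, its level was 287 times higher in db/db than in db/+ (exact 95% interval 132 to 784, counting error only) and 47.0 times higher in KO_db/db (21.3 to 129), with edgeR adjusted p = 0.000698 and 0.00509. From db/db to KO_db/db its log2 fold change was -2.69 ± 0.64 (adjusted p = 0.129).

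Kcnab3 (chr11:69326258-69333042, plus strand), a cytoplasmic β-subunit of Shaker-type channels such as that of Kcna2, was at 6.47, 8.57 and 7.76 CPM in db/+, 77.3 and 30.8 CPM in db/db and 14 and 7.38 CPM in KO_db/db. The lean and KO_db/db libraries overlapped, and both db/db libraries lay above all others. In db/db its rise was 2.81 ± 0.36 (log2) (edgeR adjusted p = 0.00205), or 2.01 without db/db mouse 1. Against db/+, KO_db/db gave 0.49 ± 0.28 (adjusted p = 0.216), which passed the threshold at 0.87 without KO_db/db mouse 2 and was -0.038 without mouse 1. Against db/db it gave -2.35 ± 0.53 (adjusted p = 0.123).

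The 2 abundant auxiliary genes fell slightly in db/db. Kcnmb2 was at 150, 175 and 130 CPM in db/+, 112 and 92.1 CPM in db/db and 136 and 133 CPM in KO_db/db. Kcnip1 was at 80, 73.7 and 95.6 CPM in db/+, 65.7 and 51.6 CPM in db/db and 79.2 and 78.1 CPM in KO_db/db. For both genes the db/db libraries were the lowest, and KO_db/db libraries lay within the lean range. In db/db both fell, Kcnmb2 with a log2 fold change of -0.58 ± 0.16 and Kcnip1 with one of -0.52 ± 0.16 (edgeR adjusted p = 0.0271 and 0.0436). The call of Kcnmb2 was lost without db/db mouse 2 (-0.45), db/+ mouse 1 (-0.59) or db/+ mouse 2 (-0.47), and that of Kcnip1 was lost without db/db mouse 2 (-0.36), db/+ mouse 1 (-0.54), db/+ mouse 2 (-0.60) or db/+ mouse 3 (-0.40). In KO_db/db against db/+ the values were -0.16 ± 0.14 and -0.07 ± 0.12 (adjusted p = 0.375 and 0.67). Kcnip4, named after its values were seen, rose by 0.64 ± 0.20 in db/db (adjusted p = 0.0458) and by 1.01 ± 0.20 in KO_db/db (adjusted p = 0.00992). Its exons share 168 bases with a gene on the other strand, 5730480H06Rik, and its calls were lost without db/db mouse 2 (0.47), db/+ mouse 1 (0.73), mouse 2 (0.52) or mouse 3 (0.67) in db/db and without KO_db/db mouse 1 (0.78) in KO_db/db.

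Of 6 genes grouped by symbol as calcium- or sodium-activated channels, 2 rose and 1, Kcnu1, fell in db/db, and 1 rose in KO_db/db. Activation by calcium or sodium was not tested for any of them. Kcnma1, the pore of the large-conductance channel, was at 45.5, 50.4 and 50.1 CPM in db/+, 70.6 and 61.9 CPM in db/db and 82.7 and 78.7 CPM in KO_db/db. The groups were in that order without overlap. It rose by 0.43 ± 0.11 in db/db (edgeR adjusted p = 0.0223) and by 0.73 ± 0.09 in KO_db/db (adjusted p = 0.00192). The call in db/db was lost without db/db mouse 1 (0.33), db/+ mouse 1 (0.38) or db/+ mouse 2 (0.46). Kcnu1, a relative of Kcnma1 known from sperm, was at 5.33 to 7.29 CPM in db/+, 2.97 and 3.37 CPM in db/db and 4.31 and 4.1 CPM in KO_db/db. Its fall in db/db was -1.01 ± 0.23 (adjusted p = 0.0148), a call lost without db/db mouse 1 (-0.92) or db/+ mouse 1 (-0.90), and was at -0.58 ± 0.21 in KO_db/db (adjusted p = 0.0658).

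The small- and intermediate-conductance channels Kcnn1 to Kcnn4 carry the slow potassium current that follows calcium entry. Kcnn3, the most abundant, was at 41.6, 43.6 and 60.2 CPM in db/+, 67.6 and 50.1 CPM in db/db and 57.4 and 33.4 CPM in KO_db/db, and groups overlapped in each comparison. Kcnn4, the intermediate-conductance channel, was at 0.589 to 1.56 CPM in db/+, 3.73 CPM in both db/db libraries and 4.27 and 1.75 CPM in KO_db/db. It rose by 1.95 ± 0.45 in db/db (edgeR adjusted p = 0.0159), a call lost without db/db mouse 1 (1.95), db/db mouse 2 (1.95) or db/+ mouse 2 (1.79). Kcnn2, at 0.693 to 3.12 CPM, and Kcnn1, at 0.623 to 1.62 CPM, were called in no comparison by edgeR, while DESeq2 called Kcnn2 higher in KO_db/db than in db/+.

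Among 6 2-pore-domain genes, 2 rose in db/db and 4 in KO_db/db, and none fell. Kcnk9 (chr15:72501089-72546340, minus strand), an acid-sensitive leak channel, was at 0.205, 0.255 and 0.45 CPM in db/+, 3.58 and 14 CPM in db/db and 5.17 and 13.7 CPM in KO_db/db. Both genotypes of db/db background lay above the lean one and covered nearly the same range. Its rise over db/+ (log2) was 4.82 ± 0.66 in db/db and 4.93 ± 0.53 in KO_db/db (edgeR adjusted p = 0.00255 and 0.00132). It was 3.52 without db/db mouse 2, 5.48 without db/db mouse 1 and 4.05 without KO_db/db mouse 2. From db/db to KO_db/db it was 0.10 ± 0.73 (adjusted p = 0.949), with a sign that turned when a single library was left out.

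Kcnk1 was at 24.7 to 25.4 CPM in db/+, 47.7 and 39.8 CPM in db/db and 32.3 and 34.8 CPM in KO_db/db. It rose by 0.79 ± 0.12 and 0.43 ± 0.09 (edgeR adjusted p = 0.00332 and 0.0134), the second call being lost without KO_db/db mouse 2 (0.36). Kcnk12 was at 7 to 7.72 CPM in db/+, 9.04 and 12.3 CPM in db/db and 9.77 and 10.7 CPM in KO_db/db, and its rise of 0.46 ± 0.15 in KO_db/db (adjusted p = 0.0462) was lost whichever single library was left out (0.38 to 0.52). Kcnk13 was at 1.23 to 2.15 CPM in db/+, 0.382 and 4.59 CPM in db/db and 7.6 and 5.07 CPM in KO_db/db. The db/db mice differed widely and enclosed the lean range, while both KO_db/db mice were above all others, a rise of 1.79 ± 0.33 (adjusted p = 0.00744) that was not called in a single fit of all 7 libraries (1.78). Kcnk3, another acid-sensitive leak channel, was at 5.53, 3.32 and 3.01 CPM in db/+, 2.11 and 1.05 CPM in db/db and 5.26 and 4.37 CPM in KO_db/db. The db/db libraries were the lowest, with a log2 fold change of -1.34 ± 0.44 against db/+ (edgeR adjusted p = 0.0504) that was called in 6 of 11 alternatives, DESeq2 (adjusted p = 0.0162) and the single fit of all 7 libraries (adjusted p = 0.0354) among them. The value was 1.60 ± 0.43 from db/db to KO_db/db (adjusted p = 0.148).

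The 3 inward rectifiers had low levels. Kcnj12 (chr11:61022564-61071131, plus strand), a strong inward rectifier known from heart and muscle, had 178, 320 and 245 counts in db/+, 1 and 0 in db/db and 34 and 10 in KO_db/db. On the CPM scale these were 7.29, 11.7 and 8.49, then 0.0294 and 0, then 1.4 and 0.243. Again no group overlapped another, with the lean libraries highest and the db/db libraries under the floor. Its pooled level was 699 times higher in db/+ than in db/db (exact 95% interval 125 to 27632, edgeR adjusted p = 0.000447), and its log2 fold change in KO_db/db was -3.59 ± 0.65 (adjusted p = 0.00683), with -5.21 without KO_db/db mouse 1 and -2.71 without mouse 2. KO_db/db exceeded db/db by 50.9 times (8.68 to 2058, counting error only), a pair that the filter on low counts kept out of the edgeR test. Kcnj4, a strong rectifier of brain, was at 0.173 to 0.766 CPM in db/+, 1.41 and 2.89 CPM in db/db and 1.03 and 1.68 CPM in KO_db/db. It rose in db/db by 2.38 ± 0.69 (adjusted p = 0.0336), a value of 3.21 without db/+ mouse 2 and a call lost without db/db mouse 2 (1.76), db/+ mouse 1 (2.19) or db/+ mouse 3 (2.01). Kcnj6, a subunit of G-protein-gated channels, was at 3.44 to 4.92 CPM in db/+, 10 and 5.21 CPM in db/db and 4.23 and 3.59 CPM in KO_db/db, with log2 fold changes of 0.83 ± 0.31 (adjusted p = 0.0791) in db/db against db/+ and -0.97 ± 0.37 (adjusted p = 0.232) in KO_db/db against db/db.

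A further 5 genes of the set were called in no comparison by the edgeR test. Kcnh1, a Kv pore subunit of the EAG family, was at 16.8, 11.5 and 40.1 CPM in db/+, 22.4 and 28.5 CPM in db/db and 40 and 32.9 CPM in KO_db/db. Its highest lean value was that of db/+ mouse 3, the mouse with by far the most Y-linked counts. From db/db to KO_db/db the log2 fold change of Kcnh1 was 0.51 ± 0.19 (edgeR adjusted p = 0.221). Kcnip2, an auxiliary subunit of A-type channels, was at 4.09 to 8.35 CPM in db/+ and 9.27 to 13.1 CPM in the other 4 libraries, which lay above all lean ones. DESeq2 called Kcnip2 higher than db/+ in both genotypes of db/db background. The A-type pore gene Kcnd1 stayed between 3.86 and 6.77 CPM and the β-subunit gene Kcnab2 between 1.24 and 3.08 CPM in all libraries. Kcnh5, the relative of Kcnh1, was at 0.985 to 3.28 CPM in db/+, 0.0956 and 0.705 CPM in db/db and 0.607 and 1.15 CPM in KO_db/db. DESeq2 called Kcnh5 lower in db/db than in db/+.

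At the threshold of 1 CPM, the 3 genes just above were Kcnj4, Kcnn1 and Kcnc4 and the 3 just below were Kcnc1 (mean 0.998 CPM), Kcng4 (0.879) and Kcnj2 (0.845). Kcnc1, a fast Kv pore subunit, was at 0.182 to 0.246 CPM in db/+ and 1.44 to 1.72 CPM in the other 4 libraries. Kcng4, a silent subunit, was at 5.84 and 0.311 CPM in db/db and at 0 in the other 5 libraries. Of the 52 genes below the threshold, 15 could be tested in db/db against db/+ and 7 were called, against 37.8% of all genes tested. For KO_db/db against db/+, 7 could be tested and 2 were called, against 38.4% of all genes. None of 15 was called in KO_db/db against db/db, where 0.319% of all genes were called. Genes this low could pass the filter on low counts through the group in which they were high. The counts of calls below the threshold are therefore no measure of an excess over all genes.

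Partner genes of these channels were called in both directions. Of 21 proteins that join or regulate potassium channels, 5 rose and 3 fell of 17 tested in db/db against db/+. In KO_db/db against db/+, 5 rose and 2 fell of 17, and none of 16 passed from db/db to KO_db/db. Shares called over all genes tested were 37.8%, 38.4% and 0.319% in these comparisons. Medians of the log2 fold change were -0.04, 0.02 and -0.02 in that order, near the 0.01, -0.00 and -0.02 of all genes. Dpp6, which associates with A-type Kv channels, was at 4.33 to 10.1 CPM in db/+, 57.8 and 27.1 CPM in db/db and 10.3 and 8.93 CPM in KO_db/db, a rise of 2.71 ± 0.44 in db/db (edgeR adjusted p = 0.00451). Its paralog Dpp10, which also associates with A-type channels, was at 8.62 to 19.3 CPM in db/+, 3.64 and 4.42 CPM in db/db and 9.32 and 8.06 CPM in KO_db/db, and fell by 1.63 ± 0.39 in db/db (adjusted p = 0.0179). Vapb and Lrrc38 were called lower, and Akap5 and Akap9 higher, than db/+ in both genotypes of db/db background. Lrrc38 was near the floor, at 0.401 to 0.554 CPM in db/+, 0 in both db/db libraries and 0.0821 and 0.0243 CPM in KO_db/db. Akap9 was at 17.8 to 19.7 CPM in db/+, 95.2 and 77.6 CPM in db/db and 93.7 and 74.9 CPM in KO_db/db. It rose by 2.22 ± 0.13 in db/db and 2.20 ± 0.12 in KO_db/db (edgeR adjusted p = 0.000325 and 0.000605). Amigo2, of a family of membrane adhesion proteins that associate with Kv channels, rose by 0.87 ± 0.16 in db/db (adjusted p = 0.00714). The ATP-sensitive channel genes Kcnj11 and Abcc8 rose in KO_db/db by 0.33 ± 0.09 and 0.51 ± 0.14 (adjusted p = 0.0257 and 0.0304) and were not called in db/db.

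Channels that depolarise the cell were counted from 2 further lists. Of 27 calcium, sodium and cation channel genes, 9 rose and 5 fell of 25 tested in db/db and 12 rose and 1 fell of 24 in KO_db/db against db/+, with medians of 0.52 and 0.71, against medians of 0.01 and -0.00 and shares called of 37.8% and 38.4% over all genes. The calcium channel pore genes Cacna1a, Cacna1c and Cacna1d rose in both. Trpm5, a calcium-activated cation channel, was at 115 to 138 CPM in db/+, 2.2 and 1.43 CPM in db/db and 31.8 and 20 CPM in KO_db/db, and was the only gene of this list called between KO_db/db and db/db (3.83 ± 0.35, edgeR adjusted p = 0.0404). Of 15 sodium pump and chloride transport genes, 5 rose and 3 fell in db/db and 6 rose and 1 fell in KO_db/db, each of 12 tested, with medians of 0.17 and 0.39, beside the same shares over all genes. Atp1b2, a β-subunit of the sodium pump, was the only one called between KO_db/db and db/db (1.70 ± 0.15, adjusted p = 0.0404).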

How the data were processed

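The authors prepared poly-A libraries, and the deposited table holds estimated counts per gene symbol, rounded to whole numbers and not normalized. Per the submitters' processing notes, bcl2fastq 2.19, kallisto 0.44.0 and GRCm38 were used. The annotation release is not given in the sources used here. The methods describe a sort on YFP and AldeRed fluorescence, and do not say whether it was used for these mice, which carried tdTomato. Groups follow the sample labels. The analysis used edgeR 4.0.16 (R 4.3.3). A fit held only the libraries of the 2 groups compared, with filterByExpr (minimum count 10), TMM scaling, the quasi-likelihood test and Benjamini-Hochberg adjustment over all genes tested, with a threshold of 0.05. Standard errors are the fold change over the root of F. CPM was scaled by TMM over all 7 libraries, and exonic lengths and coordinates came from GENCODE vM21. Exact permutation of 2 against 2 mice cannot go below p = 0.333, nor 2 against 3 below 0.2. Alternatives were RLE scaling, DESeq2 1.42.0, no count filter, 1 fit of all libraries, a block for mouse number, counts without acinar and Reg genes, other thresholds, and each library left out. Scripts were tested on simulated data. Replicates differed by more than sampling noise (chi-square per degree of freedom 17.0 to 409). Genes named by rule were the 8 largest non-overlapping rises and falls against db/+ and any call between KO_db/db and db/db. So were genes known for β-cell electrical activity, the 10 highest per kb and 3 genes on either side of 1 CPM. Kcna2, Kcnf1, Kcnip4, Kcnh8, Kcnh1, Kcnip2, Kcnd1, Kcnab2 and Kcnh5 met none of these rules and were named outside them. Genes, lists and tests were chosen with earlier results of these data known. Of the 40 genes, 4 are included in counts, sums and medians but not reported here by name. A planned search of protein sequences was not run. The table has 0 columns that were not used.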

Additional observations from a re-analysis of the deposited data

How the results depend on the processing

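The number of the 40 genes called between KO_db/db and db/db was 0 in the reported fit and 7 by DESeq2, 8 without the count filter, 7 in a single fit of all 7 libraries and 0 to 2 when 1 library was left out. Against db/+, db/db gave 21, with 13 at a threshold of 0.01 and 14 to 22 when 1 library was left out, and KO_db/db gave 16, with 12 to 18. Leaving out the 12 genes under 1 CPM in a genotype, a choice made after seeing the data, gave 12 calls for db/db and 11 for KO_db/db against db/+. The other settings stayed within 1.5 times each count. With mouse number as a replicate block the counts were 0, 24 and 15. The labels do not say that a number marks a shared litter or day, and same-numbered mice did not deviate together (correlations -0.102 to 0.0759). Where an arm was left with 1 library, it was assumed to vary like the others. Signs that turned are given with the range of the log2 fold change over the libraries left out. From db/db to KO_db/db they were those of Kcnf1 (-1.52 to 2.04, the former without KO_db/db mouse 1) and Kcnk9 (-0.77 without KO_db/db mouse 2, -0.56 without db/db mouse 1, up to 1.40). For db/db over db/+ they were those of Kcnk16 (-0.34 to 0.0087), Kcnh2 (-0.076 to 0.73) and Kcnk13 (-2.27 to 1.31, and -0.11 with the block), each turning without db/db mouse 2. For KO_db/db over db/+ they were those of Kcnip1 (-0.15 to 0.042, the latter without db/+ mouse 3, and 0.042 with the block), Kcna2 (-0.072 to 0.39, the former without KO_db/db mouse 2) and, without KO_db/db mouse 1, Kcnab3 (-0.038 to 0.87), Kcnq1 (-0.99 to 1.80) and Kcnf1 (-2.18 to 1.37, and -0.48 with the block). None of these fold changes was called in the reported fit. The cause was not tested. Genes under 1 CPM in a group rest on few counts there.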
